A study of Mus musculus with 42 samples.

Results

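The Polycomb group genes examined were Ezh2, Eed, Suz12 and Jarid2, which encode members of Polycomb repressive complex 2 (PRC2), and Bmi1, Rnf2, Phc1, Cbx2, Cbx7 and Cbx8, which encode members of PRC1. These 10 genes were taken by their gene symbols from a list, out of 18194 genes measured. No cut on their signals was used, but the list was chosen with earlier results of these data known. They were followed through 42 single retinal cells, labeled as retinal progenitor cells (RPCs) of outbred CD-1 mice. Of these, 11 were taken at E12.5, 7 at the next 3 days of gestation (4 cells of E13.5, 2 of E14.5 and a single E15.5 cell), 11 at E16.5 and 13 on the day of birth (P0). The labels name no treatment or allele, and the cells were picked at random from dissociated retinas, so that their identity rests on the genes they expressed. Every cell gave cDNA that was amplified over 35 PCR cycles and hybridized to its own Affymetrix mouse 430 2.0 array. The value of a gene in a cell was the highest MAS 5.0 signal of its probe sets, and a gene was called present at a signal of 1000 or more.

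PRC2 methylates histone H3 and PRC1 ubiquitinates histone H2A, and both marks keep developmental regulators silent in cells where they are not needed. Within PRC2, Ezh2 or its paralog Ezh1 carries the methyltransferase, Suz12 and Eed are the core subunits without which the enzyme is not active, and Jarid2 is an accessory subunit that helps to recruit the complex. Within canonical PRC1, Rnf2 or Ring1 is the ubiquitin ligase, Bmi1 or another Pcgf protein is its partner, a Phc protein links complexes to each other, and a Cbx protein binds the methyl mark left by PRC2. In the developing retina, Ezh2 is known as a gene of dividing progenitors and Bmi1 as a gene of stem and progenitor cells that represses the Ink4a/Arf locus.

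The labels were set beside marker genes. This is not an independent check, since the study classed the cells on these same arrays. Its classes were built around Ccnd1, Fgf15, Sfrp2 and Crym for RPCs and Nefl, Tfap2b and Nrl for neurons, which are among the markers used here. The quality of the cDNA had also been judged in part by PCR for Pax6 and Ccnd1. Of the values of 9 RPC markers in the 42 cells, 82.0% were present, with Pax6 and Ccnd1 in 41 cells and Dkk3 and Vim in 40. Markers of ganglion cells were present in 25.2% of values (7 genes), of amacrine cells in 13.5% (6 genes) and of photoreceptors in 10.0% (5 genes, with Rcvrn in 0 cells). Of 4 microglial markers, Aif1, Csf1r and Tyrobp were in 0 cells, and 1 of 168 values was present. Other marker lists were less clean. Blood markers were present in 10.1% of 168 values, all 4 highest in E12.5 cell G2 (summed signal 194621), and lens markers in 5.95%, with summed signals of up to 266218 at E13.5 and 120539 at E14.5. Endothelial markers were present in 16.1%, nearly all of this Kdr in 25 cells, with Pecam1 and Tek in 1 cell each and Cdh5 in 0. A median of 3034 genes was present per cell (1386 to 5253). The E12.5 median was 2800, that of E16.5 was 3217 and that of P0 was 3063. Among E16.5 cells, the 5 named E8, F1, J1, J2 and J4 were on arrays with another pattern of hybridization controls, with a median of 4103 genes present on them and of 2114.5 on the other 6 arrays. Since no animal or litter was named for a cell, each stage was 1 sample, no test between stages could be made, and intervals give no more than the error of counting cells. In a single cell with a signal under 1000, loss of a transcript during amplification and lack of the transcript cannot be told apart.

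The 3 core genes of PRC2 (Ezh2, Suz12 and Eed) were present in 32, 28 and 22 of the 42 cells, and Ezh1 in 3 cells. The exact intervals of the 3 core genes overlapped. The promoters of these genes are shown because they encode 1 enzyme and its partners, or its alternative. Each runs from 250 bases before to 50 bases after a transcription start, 5′ to 3′ on the strand of the gene, from the RefSeq annotation of GRCm38.p6, at chr6:47594981-47595280 (minus strand) for Ezh2, chr11:79992856-79993155 (plus strand) for Suz12, chr7:89980927-89981226 (minus strand) for Eed and chr11:101226414-101226713 (minus strand) for Ezh1. Capitals mark matches to an E2F motif, the motif of the factors that drive S phase genes, searched on both strands as the 4 words TTTCCCGC, TTTGGCGC, TTTGCCGC and TTTCGCGC, and to the word CCAAT, also on both strands (ATTGG on the other strand) and with no overlap between the 2 motifs in these promoters.
Ezh2: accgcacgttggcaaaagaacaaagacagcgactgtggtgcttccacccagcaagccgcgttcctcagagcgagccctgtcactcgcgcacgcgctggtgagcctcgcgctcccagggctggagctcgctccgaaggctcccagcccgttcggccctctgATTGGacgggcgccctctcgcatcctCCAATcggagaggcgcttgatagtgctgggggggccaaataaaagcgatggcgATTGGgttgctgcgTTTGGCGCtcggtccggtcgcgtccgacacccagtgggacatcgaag
Suz12: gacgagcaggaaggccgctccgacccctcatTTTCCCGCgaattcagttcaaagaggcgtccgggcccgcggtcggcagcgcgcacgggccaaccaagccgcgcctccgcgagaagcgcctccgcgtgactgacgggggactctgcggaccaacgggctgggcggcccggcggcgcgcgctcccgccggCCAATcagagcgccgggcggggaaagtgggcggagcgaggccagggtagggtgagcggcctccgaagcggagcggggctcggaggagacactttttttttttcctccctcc
Eed: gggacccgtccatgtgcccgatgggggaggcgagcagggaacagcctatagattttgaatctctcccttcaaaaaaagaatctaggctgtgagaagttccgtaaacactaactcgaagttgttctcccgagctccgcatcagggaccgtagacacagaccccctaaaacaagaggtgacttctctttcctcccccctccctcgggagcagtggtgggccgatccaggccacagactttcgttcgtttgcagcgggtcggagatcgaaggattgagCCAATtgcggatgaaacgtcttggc
Ezh1: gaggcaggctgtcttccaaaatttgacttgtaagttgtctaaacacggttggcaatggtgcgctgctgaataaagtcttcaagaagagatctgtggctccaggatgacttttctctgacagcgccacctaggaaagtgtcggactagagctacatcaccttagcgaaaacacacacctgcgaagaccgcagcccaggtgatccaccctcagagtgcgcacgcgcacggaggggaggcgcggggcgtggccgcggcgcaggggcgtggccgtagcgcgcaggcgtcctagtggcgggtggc

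Of the 10 genes, 9 had a promoter in the RefSeq table, all but Cbx2. An E2F match stood in those of Ezh2, starting at base 4 after the transcription start, and Suz12, 219 bases before it, and in 2.26% of 32851 promoters of the same length. CCAAT stood in those of 6 members, 3 times in Ezh2 and once each in Suz12 and Eed, and in 37.4% of all promoters. Both were found together in 0.962% of all promoters. The promoter of Ezh1 held neither word, and a window without these letters says nothing about the factors. All 4 promoters were rich in CpG, with 31 sites in Ezh2, 41 in Suz12, 17 in Eed and 23 in Ezh1, against a median of 7 over all promoters.

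Ezh2 and Rnf2, the catalytic genes of the 2 complexes, were the members found in the most cells, each in 32 of 42 (76.2%, exact 95% interval 60.5 to 87.9%). They were followed by Suz12 in 28 cells, Cbx2 in 25, Eed and Phc1 in 22 each, Jarid2 in 18 and Bmi1 in 16, whereas Cbx8 was in 3 cells and Cbx7 in 2. The intervals of neighbors in this order overlapped, except between Bmi1 (23.6 to 54.4%) and Cbx8 (1.50 to 19.5%). The place of Rnf2 rested on the highest of its 5 probe sets. With the median of the probe sets it was present in 14.3% of cells, and at a level of 5000 in 35.7%. Ezh2 was in 66.7% of cells at a level of 5000, and with its 1 probe set the median could not change its share. In all, 6 of the 10 genes were present in 21 or more cells, against 14.9% of the 13200 genes present in at least 1 cell, and the median was 22 cells per member and 7 cells per gene. Each gene was read by its own probe sets, from 1 for Ezh2 and Phc1 to 6 for Suz12, so that signals were compared between cells and not between genes. The plot of signals by stage shows that each member spanned a wide range within a stage, and that positive cells of Ezh2 differed by up to 5.31 on the log2 scale.

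**Figure D1:**
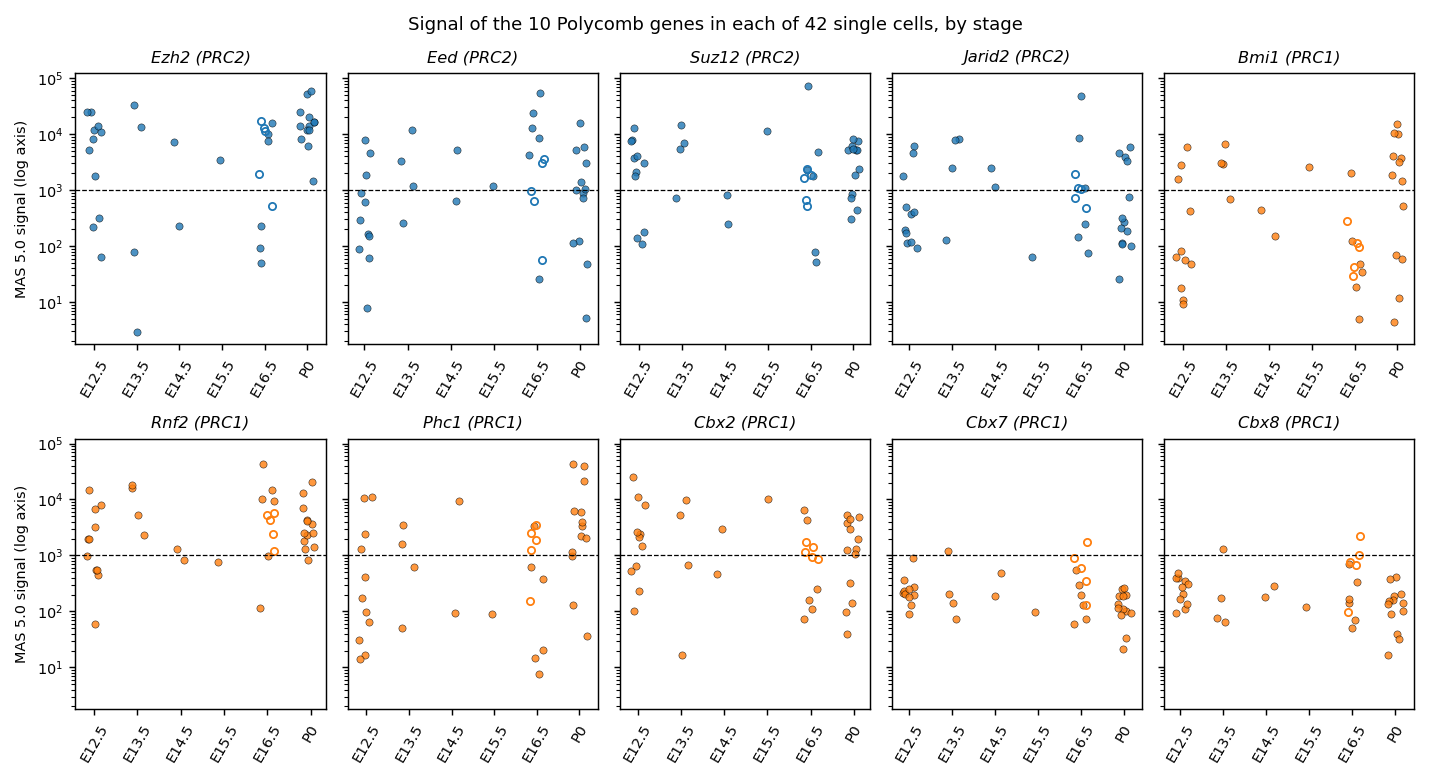
MAS 5.0 signal (vertical axis, log scale) of each of the 10 Polycomb genes in the 42 single cells, by developmental stage (horizontal axis). Each point is 1 cell, blue points are PRC2 and orange points PRC1 genes, open points are the 5 E16.5 arrays with another pattern of hybridization controls, and the dashed line is the level of 1000. All 13 P0 cells lie above the line for Ezh2, 1 of 11 E16.5 cells lies above it for Bmi1, and Cbx7 and Cbx8 lie below it in 40 and 39 of the 42 cells.

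Ezh2 was present in 8 of 11 E12.5 cells, 7 of 11 E16.5 cells and 13 of 13 P0 cells. At E12.5 its signals ran from 64.7 to 24722 with a median of 8190, and cells D5, E3 and E5 were under 1000. The E13.5 cells had 2.95 (A5), 79.0 (A6), 13611 (A8) and 33455 (B3). The E14.5 cells B1 and D7 had 229 and 7227, and the E15.5 cell had 3478. At these intermediate stages, cells were either far below the level of 1000 or well above it, and in the whole series only 1 cell had an Ezh2 signal from 500 up to 1000. At E16.5 the signals ran from 50.9 to 16941 with a median of 7520, and at P0 from 1463 to 58244 with a median of 14090. The lowest P0 cell, H3, was thus above the level, while the ranges of the 3 stages overlapped. The share of cells was higher at P0 than at E16.5 by 36.4 points (95% interval 5.23 to 64.6), and higher at P0 than at E12.5 by 27.3 points (95% interval -1.49 to 56.6).

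Ezh1, the other methyltransferase of PRC2, was present in 3 cells, 1 of which also had Ezh2, and 8 cells had neither gene: E12.5 E3 and E5, E13.5 A5 and A6, E14.5 B1, and E16.5 D5, D6 and E5. The study classed 6 of the 42 cells as transitional between RPCs and neurons, from marker genes on these same arrays (D5, E5 and F1 of E16.5, C5 of P0, A6 of E13.5 and B1 of E14.5). Ezh2 was present in 1 of these 6 cells and in 31 of the other 36, Suz12 in 1 and 27, Cbx2 in 1 and 24, Bmi1 in 0 and 16, Rnf2 in 3 and 29, and Eed and Phc1 in 2 and 20 each. Jarid2, by contrast, was present in 4 of the 6 and 14 of the 36, Cbx8 in 2 and 1 and Cbx7 in 1 and 1. Over all 13200 genes, 20.6% of values were present in the 6 cells and 24.0% in the other 36. The exception for Ezh2 was P0 cell C5, which had the highest Ezh2 signal of all cells, 58244. Without the 6 cells, Ezh2 was present in 12 of 12 P0 cells and 7 of 8 E16.5 cells, and the difference was 12.5 points (95% interval -13.8 to 47.1), so that the higher share at P0 than at E16.5 rested on 3 transitional E16.5 cells.

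Suz12, the subunit that holds PRC2 together, was present in 8 of 11 E12.5 cells, 7 of 11 E16.5 cells and 9 of 13 P0 cells, and no pair of these stages differed by 10 points or more. Its signals ran from 109 to 13153 with a median of 3057 at E12.5, from 52.2 to 74010 with a median of 1765 at E16.5 and from 300.1 to 8283 with a median of 5159 at P0. The E13.5 cells A6, B3, A8 and A5 had 712, 5486, 6923 and 14496, the E14.5 cells B1 and D7 had 246 and 828, and the E15.5 cell had 11456. The ranges of the 3 main stages overlapped. Of the 6 probe sets of Suz12, 1 reached 1000 in 0 cells and the other 5 in 18 to 26 cells.

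Eed, which binds the methyl mark and stimulates the enzyme, was present in 3 of 11 E12.5 cells, 7 of 11 E16.5 cells and 7 of 13 P0 cells. At E12.5 its signals ran from 7.70 to 7745 with a median of 296, and at E16.5 from 25.8 to 54474 with a median of 3573. At P0 they ran from 5.14 to 16063 with a median of 1006. At E13.5, cells A6, B3, A8 and A5 had 257, 1170, 3291 and 11694, the E14.5 cells B1 and D7 had 645 and 5326, and the E15.5 cell had 1193. The E16.5 cells E3, F4, D5 and E5 lay above the highest E12.5 cell, and the other 7 lay within the E12.5 range. The share was higher at E16.5 than at E12.5 by 36.4 points (95% interval -4.34 to 63.9), and by 56.1 points (6.74 to 78.3) without the 5 E16.5 arrays of the other control pattern. Many cells lay near the level for Eed, with 7 cells from 500 up to 1000 and 6 cells from 1000 up to 2000.

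Jarid2 was present in 3 of 11 E12.5 cells, 6 of 11 E16.5 cells and 4 of 13 P0 cells, with signals of 26.3 to 47618 over all cells. Of its 18 positive cells, 13 had only 1 of its 3 probe sets at the level. Its share of 42.9% of cells became 11.9% with the median of the probe sets, and 16.7% without the types of probe set that can match several transcripts. Its highest signal and the highest signals of Eed and Suz12 were all found in 2 transitional cells of E16.5. Cell E5 had 54474 for Eed and 74010 for Suz12, with 228 for Ezh2, and cell D5 had 47618 for Jarid2, with 94.1 for Ezh2. In both cells all 6 PRC1 members were under 1000. These were the cells with the fewest genes present in the series, 1386 in D5 and 1438 in E5, and all arrays were scaled to the same target intensity. The part of this in the high signals was not tested.

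Rnf2, the ubiquitin ligase of PRC1, was present in 6 of 11 E12.5 cells, 9 of 11 E16.5 cells and 12 of 13 P0 cells. Its signals ran from 60.4 to 14936 with a median of 1962 at E12.5, from 117 to 42630 with a median of 5275 at E16.5 and from 837 to 20292 with a median of 2501 at P0. The E13.5 cells A5, A8, A6 and B3 had 2356, 5367, 15797 and 17847, all above 1000, the E14.5 cells B1 and D7 had 838 and 1318, and the E15.5 cell had 757. Rnf2 was under 1000 in 5 E12.5 cells and in only 1 P0 cell, B6 with 837, but the positive signals of the 2 stages covered much the same range. The share was higher at P0 than at E12.5 by 37.8 points (95% interval 2.53 to 65.0). This direction turned at a level of 5000, where the difference was -4.20 points, and among the 3000 highest genes of each cell, where it was -14.0 points. Ring1, the alternative ligase, was present in 3 cells, all of which also had Rnf2, so that the 10 cells without Rnf2 had neither.

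Bmi1, the Pcgf subunit of canonical PRC1, was present in 3 of 11 E12.5 cells, 1 of 11 E16.5 cells and 8 of 13 P0 cells. Its signals ran from 9.07 to 5904 with a median of 63.2 at E12.5. In E16.5 cells they ran from 5.08 to 2019 with a median of 48.7, and cell D6 stood alone above the next cell, J1 at 287. At P0 they ran from 4.49 to 15005 with a median of 1878. The E13.5 cells A6, A5, B3 and A8 had 692, 2964, 3074 and 6556, the E14.5 cells B1 and D7 had 153 and 439, and the E15.5 cell had 2576. The P0 cells C1, H3 and A8, with 10087, 10458 and 15005, stood above every other cell, while the P0 cells G2, E2, C8 and C5 were as low as the low cells of E12.5 and E16.5. The share was higher at P0 than at E16.5 by 52.4 points (95% interval 13.8 to 74.5), the largest difference of any member between these stages, and higher at P0 than at E12.5 by 34.3 points (95% interval -4.91 to 61.4). On the 5 E16.5 arrays with another control pattern Bmi1 was present in 0 cells, and on the other 6 in 1. Without the 5 arrays the difference between P0 and E16.5 was 44.9 points (95% interval -2.58 to 69.7).

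Phc1, the mouse polyhomeotic gene, was present in 4 of 11 E12.5 cells, 5 of 11 E16.5 cells and 10 of 13 P0 cells. Its signals ran from 14.4 to 11076 with a median of 177 at E12.5, from 7.74 to 3535 with a median of 624 at E16.5 and from 36.0 to 43008 with a median of 3404 at P0. The E13.5 cells A5, A6, A8 and B3 had 50.2, 612, 1577 and 3488, the E14.5 cells D7 and B1 had 94.8 and 9519, and the E15.5 cell had 91.0. The P0 cells C8, C5 and A8, with 21727, 38990 and 43008, stood above every other cell, while H3 and H2 at P0 were as low as the low E12.5 cells. The share was higher at P0 than at E12.5 by 40.6 points (95% interval 1.35 to 66.5) and higher at P0 than at E16.5 by 31.5 points (95% interval -6.52 to 59.9). At E16.5, Phc1 was present in 4 of the 5 arrays with another control pattern and 1 of the other 6. The difference between P0 and E16.5 was 60.3 points (95% interval 12.2 to 80.5) without the 5 arrays and 12.5 points (-24.4 to 48.3) without the transitional cells. It was 26.9 points, under the limit of 30, when any 1 of the 6 E16.5 cells without Phc1 was left out. Leaving out any 1 of the 10 P0 cells with Phc1 also brought it under 30.

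Of the Cbx genes, whose products read the methyl mark of PRC2, Cbx2 was present in 7 of 11 E12.5 cells, 5 of 11 E16.5 cells and 9 of 13 P0 cells. Its signals ran from 102 to 24916 with a median of 2146 at E12.5, from 72.1 to 6476 with a median of 919.8 at E16.5 and from 39.4 to 5362 with a median of 1326 at P0, so that the 3 stages overlapped. Cbx7 reached 1000 only in E13.5 A6 (1199) and E16.5 J4 (1727), and Cbx8 only in E13.5 A6 (1327) and E16.5 E8 (1008) and F1 (2251). Both genes were in 0 of 11 E12.5 and 0 of 13 P0 cells, which allows shares of up to 28.5% and 24.7% (upper ends of the exact intervals). All 4 cells that had Cbx7 or Cbx8 were either on an array with another control pattern or transitional cells. E13.5 A6 also had the highest signals of the lens genes Crybb1 (182917) and Cryaa (78457). Cbx6, which was not among the 10 genes, was present in 12 cells.

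**Figure D2:**
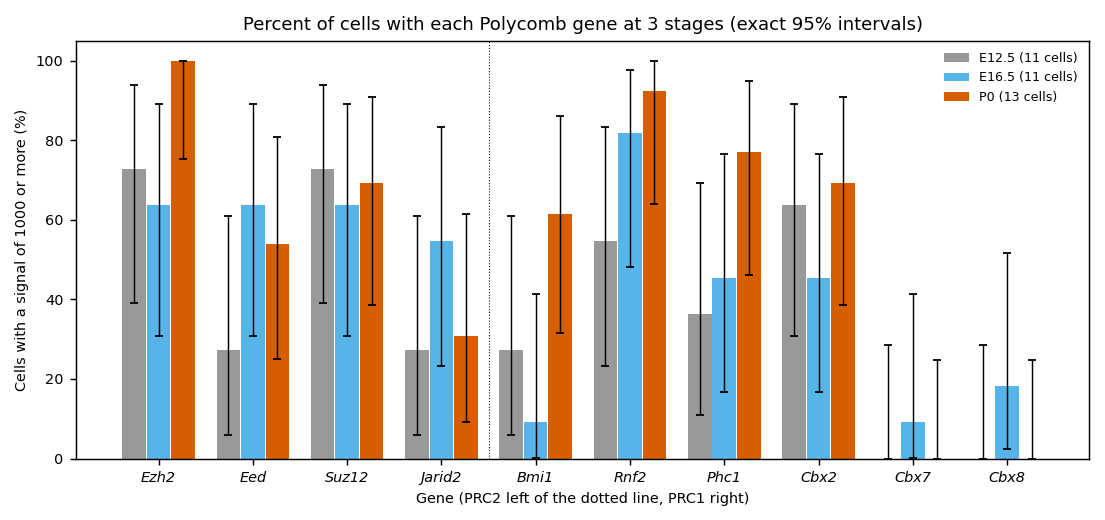
Share of cells in which each of the 10 Polycomb genes was present (vertical axis, percent), by gene (horizontal axis), for the 11 cells of E12.5, the 11 of E16.5 and the 13 of P0. Bars are percents of cells and lines are exact (Clopper-Pearson) 95% intervals. Bmi1 stands at 9.09% at E16.5 and 61.5% at P0, Phc1 is at 36.4, 45.5 and 76.9% in stage order, and Suz12 is at 63.6 to 72.7% at all 3 stages.

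Set side by side, the share of cells was higher at P0 than at E12.5 by 30 points or more for 3 of the 10 genes (Bmi1, Rnf2 and Phc1), against 6.52% of 13200 genes, and lower by as much for 0 of 10, against 2.10%. It was higher at E16.5 than at E12.5 for 1 gene, Eed, against 2.75% of genes, and lower for 0, against 2.80%. It was higher at P0 than at E16.5 for 3 genes (Ezh2, Bmi1 and Phc1), against 6.95% of genes, and lower for 0, against 2.39%. The median difference over the 10 genes was 16.1, 9.09 and 8.04 points in these 3 comparisons, and 0 points over all 13200 genes in each. Each stage enters 2 of the 3 comparisons, which therefore share cells. A gene found in few cells cannot reach 30 points, and the median was 7 cells over all genes and 22 over the members. The shares and medians over all genes were thus not matched to the members in the number of cells. The interval of the difference lay above 0 for Rnf2 and Phc1 between P0 and E12.5 and for Ezh2 and Bmi1 between P0 and E16.5, and included 0 for the other 3. Without the transitional cells, that of Phc1 between P0 and E12.5 included 0 as well (38.6 points, -1.31 to 65.3). With single cells left out in turn, 6 of these 7 differences stayed at 30 points or more, all but that of Phc1 between P0 and E16.5. Leaving out 1 cell also brought 4 further differences to 30 points or more, with highest values of 30 and 33.8 for Ezh2 and Eed (P0 minus E12.5) and of 34.5 and 35.5 for Jarid2 and Rnf2 (E16.5 minus E12.5). Without the 6 transitional cells, Rnf2 was higher at E16.5 than at E12.5 by 45.5 points (95% interval 4.99 to 72.0), and Eed at P0 than at E12.5 by 31.1 points (-8.36 to 59.5).

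Some other measures moved with stage as well. The 7 ganglion cell markers were present in 13.0% of values of E12.5 cells, 31.2% of E16.5 values and 25.3% of P0 values, with summed signals of 833 to 15440, 1822 to 124178 and 468 to 43396 per cell, and photoreceptor markers in 5.45%, 10.9% and 13.8%. For the 6 amacrine markers the shares were 3.03%, 19.7% and 15.4% in stage order, with summed signals of up to 3594, 14390 and 25418, and for the 4 blood markers 13.6%, 11.4% and 0%. Among genes of the G2 and M phases of the cell cycle (11 genes), the share present was 55.4% in E12.5 cells, 47.1% in E16.5 cells and 67.1% in P0 cells. The S phase genes (12 genes) moved less, with 68.9%, 62.9% and 66.0% in stage order, as did the 9 RPC markers, with 82.8%, 78.8% and 85.5%. When every cell was held to its 3000 highest genes, the differences between P0 and E12.5 were 43.4 points for Bmi1 and 40.6 points for Phc1, but -14.0 points for Rnf2 and 2.10 points for Eed. The part of these measures in the differences between stages was not tested.

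Within cells, the transcripts of a complex were often found in part. All 3 core genes of PRC2 were present in 13 of 42 cells (31.0%, exact 95% interval 17.6 to 47.1%), 2 of 3 in 18 cells, 1 in 7 and 0 in 4. Of the 18 cells with 2 core genes, 10 had no Eed, 5 no Suz12 and 3 no Ezh2. For canonical PRC1, a gene of each of the 4 parts (Rnf2 or Ring1; Bmi1 or Pcgf2; Phc1, Phc2 or Phc3; and Cbx2, Cbx6, Cbx7 or Cbx8) was present in 11 cells (26.2%, interval 13.9 to 42.0%), and 3 of 4 parts in 19 cells, of which 12 had no Pcgf gene of this kind. The Pcgf part was found in 19 cells, the Cbx part in 31, the ligase in 32 and the Phc part in 34. Both sets were found in full in 6 cells, the PRC2 core only in 7, the PRC1 parts only in 5 and neither in 24. A catalytic gene of both complexes was present in 29 cells and of neither in 5. All 4 PRC1 parts were found in 1 of 11 E12.5 cells, 2 of 11 E16.5 cells and 5 of 13 P0 cells, and all 3 PRC2 core genes in 2, 3 and 5.

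Over all gene and cell combinations, PRC2 members were present in 100 of 168 (59.5%) and PRC1 members in 100 of 252 (39.7%). Without Cbx7 and Cbx8, the other 4 PRC1 genes were present in 95 of 168 (56.5%). At the level used for presence, with the highest probe set, the difference between the complexes was thus nearly all that of these 2 genes. They were the PRC1 members in the fewest cells, and no PRC2 gene was left out. At a level of 5000, Cbx7 and Cbx8 were in 0 cells, and a difference remained. There, PRC2 members were present in 35.1% of values, and Rnf2, Phc1, Cbx2 and Bmi1 in 35.7, 19.0, 19.0 and 11.9% of cells. Cell by cell, at the level used for presence, 13 cells had more of the 4 PRC2 genes than of these 4 PRC1 genes. Another 18 had as many and 11 had fewer. By stage, the 4 PRC2 genes were present in 50.0% of E12.5 values, 61.4% of E16.5 values and 63.5% of P0 values, and the 4 PRC1 genes in 45.5%, 45.5% and 75.0%. The exact intervals of all these shares treat genes of 1 cell as independent, and for the 4 PRC1 genes they were 30.4 to 61.2% for both E12.5 and E16.5 and 61.1 to 86.0% for P0.

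**Figure D3:**
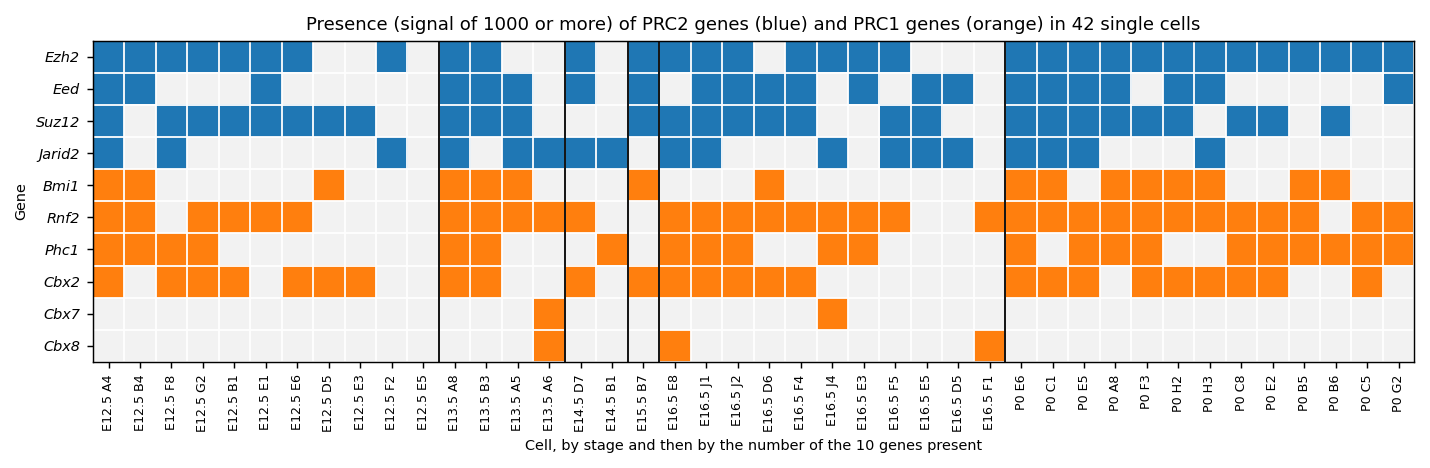
Presence of the 10 Polycomb genes (rows) in the 42 single cells (columns), ordered by stage and within a stage by the number of genes present. Filled squares are signals of 1000 or more, blue for PRC2 and orange for PRC1, and black lines part the stages. The P0 cells have 4 to 8 of the 10 genes and all have Ezh2, while the E12.5 cells have 0 to 8.

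The number of the 10 genes present per cell had a median of 4 in E12.5 cells (0 to 8), 5 in E16.5 cells (2 to 7) and 6 in P0 cells (4 to 8), and the grid of presence by cell shows that cells of 1 stage held different combinations. Cell A4 of E12.5, cell A8 of E13.5 and cell E6 of P0 had 8 members each, while cell E5 of E12.5 had 0, with 2088 genes present. Across the 42 cells, the number of members followed the number of all genes present (Pearson r = 0.54), where both numbers come from the same array and share its depth. Cell F1 of E16.5, with the most genes present (5253), had only 2 members, Rnf2 and Cbx8. The medians were 5 at all 3 stages when every cell was held to its 3000 highest genes.

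Signals of the members varied largely apart from each other. Over the 28 pairs of the 8 genes present in 10 or more cells, Pearson r of the log2 signals (with signals under 1000 set to 1000, n = 42 cells) had a median of 0.05 and ran from -0.32 to 0.47. The core genes of PRC2 were not an exception. Ezh2 and Suz12 were both present in 23 cells with r = 0.11, Ezh2 and Eed in 18 cells with r = -0.08, and Eed and Suz12 in 16 cells with r = 0.27. The lowest r was that of Ezh2 and Jarid2 (-0.32), but it was 0.10 among the 11 E12.5 cells and -0.63 among the 13 P0 cells. The highest was that of Ezh2 and Phc1 (0.47), with both present in 21 cells and Phc1 alone in 1, and r was 0.55 within E12.5, 0.33 within E16.5 and 0.50 within P0. Suz12 and Cbx2, with r = 0.31, were both present in 22 cells. These correlations are descriptions over cells that differ in depth.

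The genes whose signals were most like that of Ezh2, over the 42 cells, were Top2a (r = 0.65), the topoisomerase that untangles chromosomes in G2 and M phase, Nup62 (0.58), a nuclear pore protein, Lsm6 (0.57), an RNA-binding protein of the splicing machinery, Lbr (0.56), a receptor of the inner nuclear membrane, and Vrk1 (0.56), a chromatin kinase. Without the 6 transitional cells, r of these genes with Ezh2 was 0.61, 0.45, 0.56, 0.35 and 0.47 in the same order. Of 5227 genes present in 10 or more cells, 2.72% had r of 0.4 or more with Ezh2 over the 42 cells. Of the 7 other members in 10 or more cells, 1 did (Phc1). Top2a was present in 35 cells, 30 of them with Ezh2. Among E12.5 cells, the 3 lowest in Top2a, E3, E5 and F2 (56.2, 151 and 222), had 218, 312 and 1783 for Ezh2. Within stages, r was 0.72 among E12.5 cells, 0.77 among those of E16.5 and 0.19 among those of P0, where cell G2 had 24539 for Ezh2 with 195 for Top2a. In the other direction, E12.5 D5, E14.5 B1 and the E16.5 cells D6, E5 and F1 had Top2a without Ezh2.

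**Figure D4:**
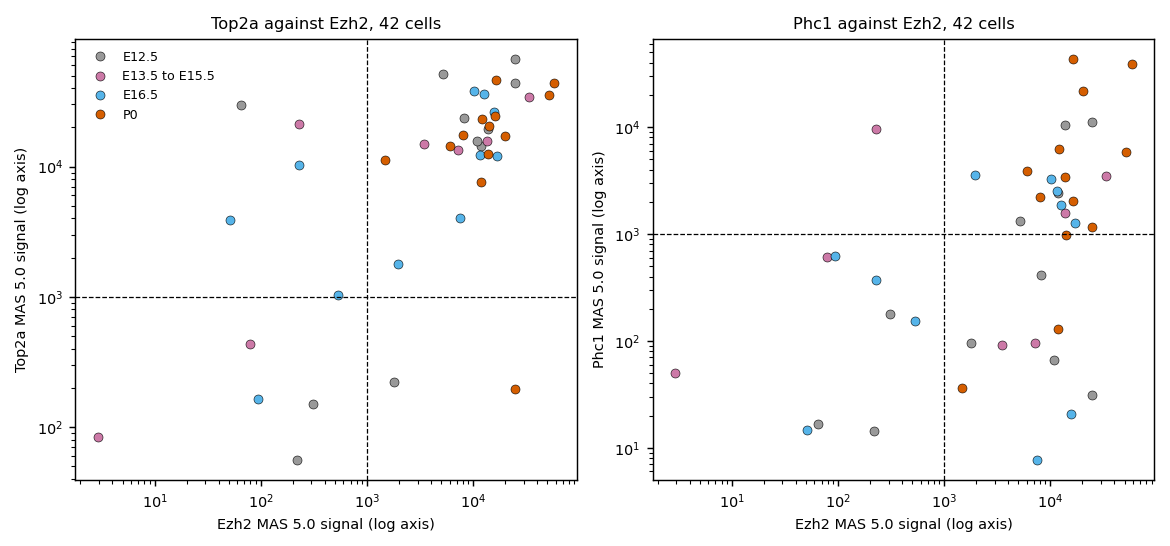
MAS 5.0 signals of Top2a (left, vertical axis) and Phc1 (right, vertical axis) against that of Ezh2 (horizontal axes), all on log scales, in the 42 single cells. Each point is 1 cell, colored by stage, and dashed lines are the level of 1000. Top2a and Ezh2 are both above the level in 30 cells and both below it in 5, and 1 cell has Phc1 without Ezh2 while 11 have Ezh2 without Phc1.

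Cell cycle genes as lists followed the same direction. For 11 S phase genes in 10 or more cells, among them Pcna in 37 cells, Mcm7 in 35, Mcm2 in 34 and Rrm2 in 33, the median r with Ezh2 was 0.26, and 10 of 11 were above 0, with Mcm2 (0.43) and Rrm1 (0.41) the highest. For 11 genes of G2 and M phase the median was 0.21, with Top2a, Mki67, Ccna2 and Cdk1 in the most cells and Kif11 and Aurka in the fewest. Over all 5227 genes the median was 0.05, and 3167 of them were above 0. With Suz12 the medians were 0.10 for S phase and 0.04 for G2 and M phase genes, and with Eed -0.16 and -0.02, against medians over all genes of 0.02 for Suz12 and -0.03 for Eed. With Jarid2, 0 of the 11 S phase genes had an r above 0, and the median was -0.18, against 2232 of the 5227 genes above 0 and a median of -0.03 over all of them. Phc1 had a median r of 0.04 with the S phase genes and 0.21 with the G2 and M phase genes, against 0.0004 over all genes.

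No gene stood among the 5 most alike of more than 1 of the 5 members examined in this way. For Suz12 they were Zkscan3 (r = 0.65), Irs1 (0.64), the insulin receptor substrate, Mprip (0.63), Rsf1 (0.61), a chromatin remodeling factor, and Cfl2 (0.59), a cofilin, and without the 6 transitional cells these values were 0.38 to 0.60. For Bmi1 they were Ehd2 (0.63), the mitochondrial genes Ndufa9 (0.63) and Etfa (0.61), the spectrin Sptan1 (0.59) and Pkia (0.58), an inhibitor of protein kinase A. For Phc1 they were Neil3 (0.75), a DNA glycosylase of proliferating cells, Tmem39b (0.66), Fnbp4 (0.65), Bicra (0.62), a subunit of a SWI/SNF complex, and Exd2 (0.60). For Cbx2 they were Ciz1 (0.62), which acts in DNA replication, Vma21 (0.60), Zfp687 (0.59), N4bp2 (0.59) and Smad3 (0.58). Without the 6 transitional cells, the values were 0.56 to 0.64 for Bmi1, 0.50 to 0.66 for Phc1 and 0.55 to 0.59 for Cbx2. Phc1 and Neil3 were both present in 17 cells, and their r was 0.62 within E12.5, 0.44 within E16.5 and 0.85 within P0.

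The other subunits were found in 1 to 38 cells. Among 8 other PRC2 genes, the histone chaperones Rbbp7 and Rbbp4 were in 38 and 37 cells, the accessory subunits Aebp2 and Mtf2 in 27 and 21, and Ezh1, Phf1 and Epop in 3 each. Among 18 other PRC1 genes measured, Phc2 was in 30 cells, Pcgf3 in 24, Bcor in 23 and Pcgf5 and Yaf2 in 18 each, all but Phc2 genes of non-canonical complexes, while Scml4 and Bcorl1 were in 1 each. Bmi1, Pcgf3 or Pcgf5 was present in 32 cells. Phc1 and Phc2 were both present in 19 cells, and 33 cells had at least 1 of them. Of values of the 8 and the 18 genes, 40.5% and 26.1% were present, against 23.5% over the 13200 genes. Pcgf3 was in 4 of 11 E12.5 cells, 6 of 11 E16.5 cells and 11 of 13 P0 cells, and higher at P0 than at E12.5 by 48.3 points (95% interval 9.27 to 72.2), the only 1 of these 26 genes past 30 points in that comparison (3.85%, against 6.52% of all genes). Between P0 and E16.5, Pcgf3, Aebp2 and Mtf2 were higher at P0 by 30 points or more (3 of 26, 11.5%, against 6.95% of all genes), and 0 of the genes were lower by as much.

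Genes that work against Polycomb repression were present in 31.4% of values. Of 15 measured, Bap1, the H2A deubiquitinase, was in 24 cells, the MLL complex genes Men1 and Wdr5 in 21 and 19, Asxl1, the partner of Bap1, in 19, and Asxl2 in 5 and Asxl3 and the H3 demethylase gene Kdm6b in 7 each. Men1 was higher at P0 than at E12.5 by 32.9 points (95% interval -6.12 to 60.7), and no other of the 15 passed 30 points in either direction in that comparison, so that 1 of 15 was higher, against 6.52% of all genes. The HP1 genes, which carry the Cbx name but belong to another repressive system, were in 35 (Cbx5), 22 (Cbx1) and 5 cells (Cbx3). Of the classical Polycomb targets Cdkn2a and Cdkn2b, which encode inhibitors of the cell cycle, each reached 1000 in 1 of 42 cells (2.38%, exact 95% interval 0.0603 to 12.6%), at E13.5, with signals of 1403 and 1109. Both signals came from the same cell, with a summed signal of 2512.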

How the data were processed

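The authors amplified the cDNA of single cells and computed MAS 5.0 signals, the intensity values deposited, scaled on each array to a target of 500 (trimmed means here 500.002 to 500.023). Build and annotation were not given in the sources used here. Of 45101 probe sets, the 34958 with 1 gene symbol in the platform annotation were used. 932 had several symbols and 9211 were unnamed here. The highest signal of a gene was its value, and 1000 or more was called present. Python 3.11.15, pandas 2.3.3, NumPy 2.4.6 and SciPy 1.17.1 gave counts, exact (Clopper-Pearson) 95% intervals, Newcombe intervals of differences and Pearson r, after tests on simulated data. With 1 sample per stage no p-value was computed. Named genes were the 10 members, the 4 in the most and 2 in the fewest cells of each list, with ties, and the 5 genes with the highest r for 5 members. Other genes were named after their values were seen. The members and lists were chosen with earlier results of these data known. Alternatives were other levels, probe set rules, a fixed 3000 genes per cell and leaving out cells. Single cells left out in turn, and differences at E16.5 without cells, were added after seeing the data.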

Additional observations from a re-analysis of the deposited data

How the results depend on the processing

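Values were held to the 95% interval of the main value, and medians to 1 SD. The count of members past 30 points, which has no interval, was held to a ratio with the main count. Of 280 values under 10 alternatives, 235 stayed within these limits, 43 moved out of them, and 2 differences past 30 points changed sign. The last were those of Rnf2, which was 37.8 points higher at P0 than at E12.5, but had a difference of -4.20 at a level of 5000 and -14.0 among the 3000 highest genes of each cell. Smaller differences between P0 and E12.5 also changed sign. That of Cbx2 (5.59 points) was -19.6 to -8.39 points under 5 alternatives, that of Jarid2 (above 0 at the level of 1000) was -1.40 at a level of 5000 and -10.5 without the types of probe set that can match several transcripts, and that of Suz12 (below 0 at that level) was 11.9 at a level of 500, 26.6 at 5000 and 2.27 without the transitional cells. Of the differences past 30 points, that of Bmi1 was 28.0 at 2000, 14.0 at 5000 and 26.6 with the median of probe sets, that of Rnf2 18.2 at 500 and 21.7 with the median, and that of Phc1 20.3 at 5000. The shares followed the level by construction. PRC2 members were present in 69.0% of values at a level of 500, 47.6% at 2000 and 35.1% at 5000, and PRC1 members in 49.2%, 29.0% and 14.3%. All 3 PRC2 core genes were found in 47.6%, 16.7% and 4.76% of cells and all 4 PRC1 parts in 45.2%, 9.52% and 0%. The median number of members was 3 for E16.5 cells and 4 for P0 cells at 2000, and 2 and 3 at 5000, where 0 members were higher at P0 than at E12.5 by 30 points or more. With the median in place of the highest probe set, these values were 45.2% and 25.8% (PRC2 and PRC1 members), 16.7% and 4.76% (complete PRC2 core and PRC1), 3 for E16.5 and 4 for P0, and 1 member. None of 28 values moved when the 6 transitional cells, E13.5 A6 and E16.5 F1, or the 5 arrays with another control pattern were left out. These values were taken over all stages, within a stage or between P0 and E12.5. E13.5 A6, E16.5 F1 and the 5 arrays held no E12.5 or P0 cell, so leaving them out could not change values of these stages. Without the transitional cells, 4 members were higher at P0 than at E12.5 by 30 points or more. Adding probe sets with several symbols changed none of the 28 values. E12.5 G2, highest in the 4 blood genes, and E14.5 D7, highest in the lens genes Cryba1 and Mip, were kept in every alternative. The part of other tissues in the values was not tested. No paired analysis was possible because each stage was 1 sample and no number pairs cells across stages. The small number of cells limits every share: with 13 P0 and 11 E12.5 cells, the 95% interval of the difference of 34.3 points for Bmi1 still included 0.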
